A study of Danio rerio with 16 samples.

Results

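Chronic cortisol treatment was compared with vehicle in the 8 samples of wild-type (WT) larvae, 4 of each treatment, out of the 16 samples of an RNA-seq experiment on klf9 mutant zebrafish. The WT larvae and the klf9-/- larvae came from sibling parents, and both lines are of the AB strain. Embryos developed from about 4 h post fertilization in medium with 1 µM cortisol or with DMSO as vehicle, under 14 h of light and 10 h of dark, and whole larvae were frozen 3 h after lights-on at 5 days post fertilization (dpf). Each sample held 10 pooled larvae, and the 4 samples of a condition were taken from 1 dish, so the p-values below measure the spread between samples of the same dish. Preparation of the RNA took 2 days. Replicates 1 and 2 belong to day 1, when lysis buffer was put on all 8 frozen samples before the first was homogenized, and replicates 3 and 4 to day 2, when homogenization followed at once for every sample. Replicates 3 and 4 were also later in the order of collection, so this order and the day of preparation cannot be told apart, and a difference between days below stands for both. The members were chosen by their labels, namely the 4 vehicle and the 4 cortisol samples of the WT line, and the fit across genes also used the 8 klf9-/- samples to estimate the spread.

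Cortisol is the main glucocorticoid of fish and acts through the glucocorticoid receptor (GR, encoded by nr3c1) and the mineralocorticoid receptor (nr3c2). The ligand-bound receptors enter the nucleus and raise or lower transcription, and in vertebrates GR is known for feedback inhibition of the stress axis, for mobilizing fuel, for slowing growth and for restraining inflammatory transcription factors such as NF-kB. Klf9 is a Krüppel-like transcription factor whose gene is a known target of GR. At 5 dpf a zebrafish larva has innate immune cells (macrophages and neutrophils), a liver, a pancreas, a functioning eye and swimming muscle, while lymphocytes are still few, so whole-larva RNA mixes all of these tissues. In such bulk samples, fewer cells of a type and less RNA per cell cannot be told apart.

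The values are normalized counts, which the authors had corrected for GC content and forced to the same distribution in every sample. Depth is therefore unknown, and errors come from the replicates alone. Because the most abundant genes share a fixed ladder of values, equal numbers recur among them and their log2 differences are steps on that ladder. Of 22994 genes, 21490 had a mean of at least 5 normalized counts and were tested with limma. Differences are log2 of cortisol over vehicle with preparation day as a covariate, SE is the standard error, and a gene was called raised or lowered at a Benjamini-Hochberg adjusted p under 0.05. Sample values follow the order of replicates 1 to 4. Symbols in capitals are human-style names that several zebrafish paralogs can carry, and the Ensembl identifier is given where more than 1 gene of the table has the symbol. Gene lists can share members.

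Cortisol raised 1003 genes in WT larvae, 4.67% of those tested, and lowered 857, or 3.99%. The raised genes were changed more, with a median log2 difference of 0.67 and 263 genes over 2-fold, against -0.46 and 17 genes over 2-fold for the lowered genes. All 4 cortisol samples lay above all 4 vehicle samples in 2.01% of tested genes and below them in 2.48%. Among the raised genes 297 had groups without overlap, and among the lowered genes 193. With only the 8 WT samples in the fit the counts were 262 raised and 21 lowered, and without WT cortisol replicate 1, a day 1 sample, they were 287 and 53. The raised count was 314, 349 and 476 without WT cortisol replicate 2, WT vehicle replicate 1 and WT vehicle replicate 4, and the lowered count was then 70, 85 and 172. The lowered count was 314 without WT vehicle replicate 2, and the counts were 1842 raised and 1779 lowered without WT vehicle replicate 3.

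The preparation days differed in how many genes they called. On day 1, 3874 genes (18%) were raised and 4635 (21.6%) lowered, whereas on day 2 the numbers were 313 (1.46%) and 10 (0.0465%). Only 115 genes (0.535%) were raised at the threshold on both days, and 3 (0.0140%) were lowered on both. The 115 became 31, 44 and 57 without WT cortisol replicate 3, WT vehicle replicate 4 and WT cortisol replicate 4, day 2 samples. Of the 1003 raised genes 802 were called on day 1 but not on day 2, 20 on day 2 but not on day 1, and 66 on neither, while of the 857 lowered genes 814 were called on day 1 alone. All of these raised and lowered genes had the same sign on both days, with medians of 0.89 on day 1 and 0.45 on day 2 for the raised and of -0.67 and -0.23 for the lowered. A fit with 1 effect for both days hardly calls a gene with opposite signs, so the shared sign came largely from the selection. Of all tested genes 42.5% had opposite signs on the days, 34% were lower on both and 23.2% were higher on both. The effect itself differed between days at an adjusted p under 0.05 in 3474 genes, being larger on day 2 in 1787 (8.32%) and smaller in 1687 (7.85%). For the days, here and below, larger means a more positive log2 difference and not a stronger effect. A fall that shrank on day 2 therefore counts as larger on day 2. In 64 genes cortisol lowered the level on day 1 and raised it on day 2, and in 1 gene the opposite held.

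**Figure D1:**
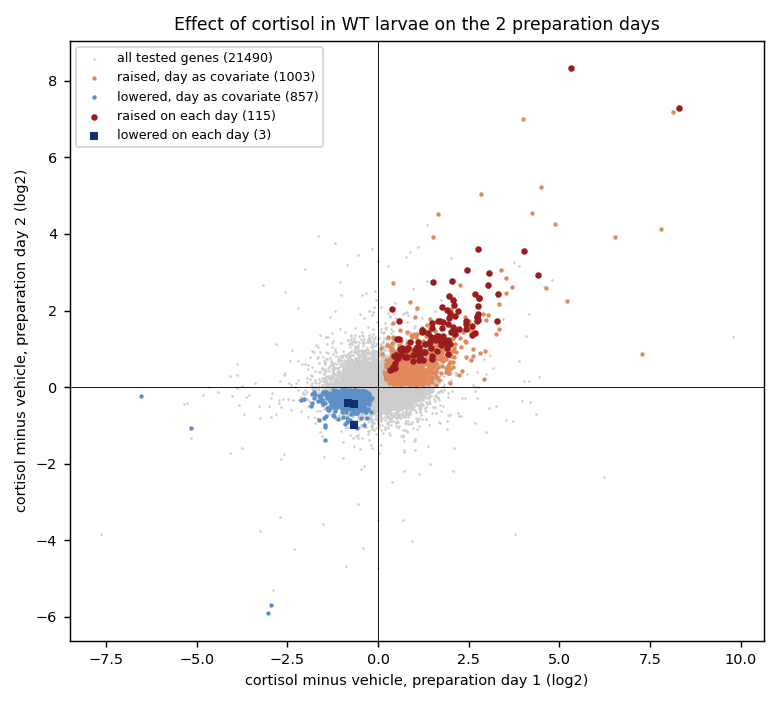
Log2 difference between cortisol and vehicle in WT larvae on preparation day 1 (x axis) and on day 2 (y axis), with each of the 21490 tested genes as a point, the 1003 raised genes in orange, the 857 lowered genes in blue, and those called on each day (115 raised, 3 lowered) in dark red and dark blue. The dark red points extend to the upper right (medians of 1.62 on day 1 and 1.31 on day 2), whereas the lowered genes have medians of -0.67 and -0.23.

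Many of the same genes had different levels on the days without cortisol. Vehicle-treated klf9-/- larvae are outside the WT contrast, but they entered the filter, the spread and the shared day term of the fit that called the genes. In these larvae the raised genes were higher on day 1 than on day 2 by a median log2 of 0.51 (945 of 1003 genes). The lowered genes were lower by a median of -0.35 (777 of 857), against a median of 0.01 over all tested genes. The day difference in these larvae is given below beside some of the gene lists. For other lists its median was 0.88 for complement, 0.70 for exocrine pancreas, 0.62 for neutrophil and 0.62 for intestinal genes. It was 0.39 for proteasome, 0.30 for NF-kB and 0.27 for cytokine genes. Negative medians were -0.43 for glutamate, GABA and glycine receptors, -0.32 for clock and -0.18 for glycolytic genes. The part of this day difference in the cortisol effect was not tested.

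The share of each list called raised or lowered was read against the backgrounds of 4.67% and 3.99%. For counts of genes larger or smaller on day 2 the shares of all tested genes were 8.32% and 7.85%. For genes raised on each day the share was 0.535%. Lists of innate immunity stood at the raised end, with 65.6% of interferon-stimulated genes and 56.1% of macrophage markers raised and none lowered. At the lowered end, 27.8% of neural progenitor and cell cycle genes, 25.7% of synaptic genes, 20.8% of cartilage and bone genes and 20.6% of photoreceptor genes were lowered and none raised. With only the 8 WT samples the lowered counts of these lists were 1, 0, 2 and 1. The raised counts were then 15 for interferon-stimulated genes and 19 for macrophage markers. No gene of 31 endothelial and lymphatic markers, of 33 genes of fatty acid synthesis and lipid storage or of 21 myosin heavy chains was called in either direction.

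**Figure D2:**
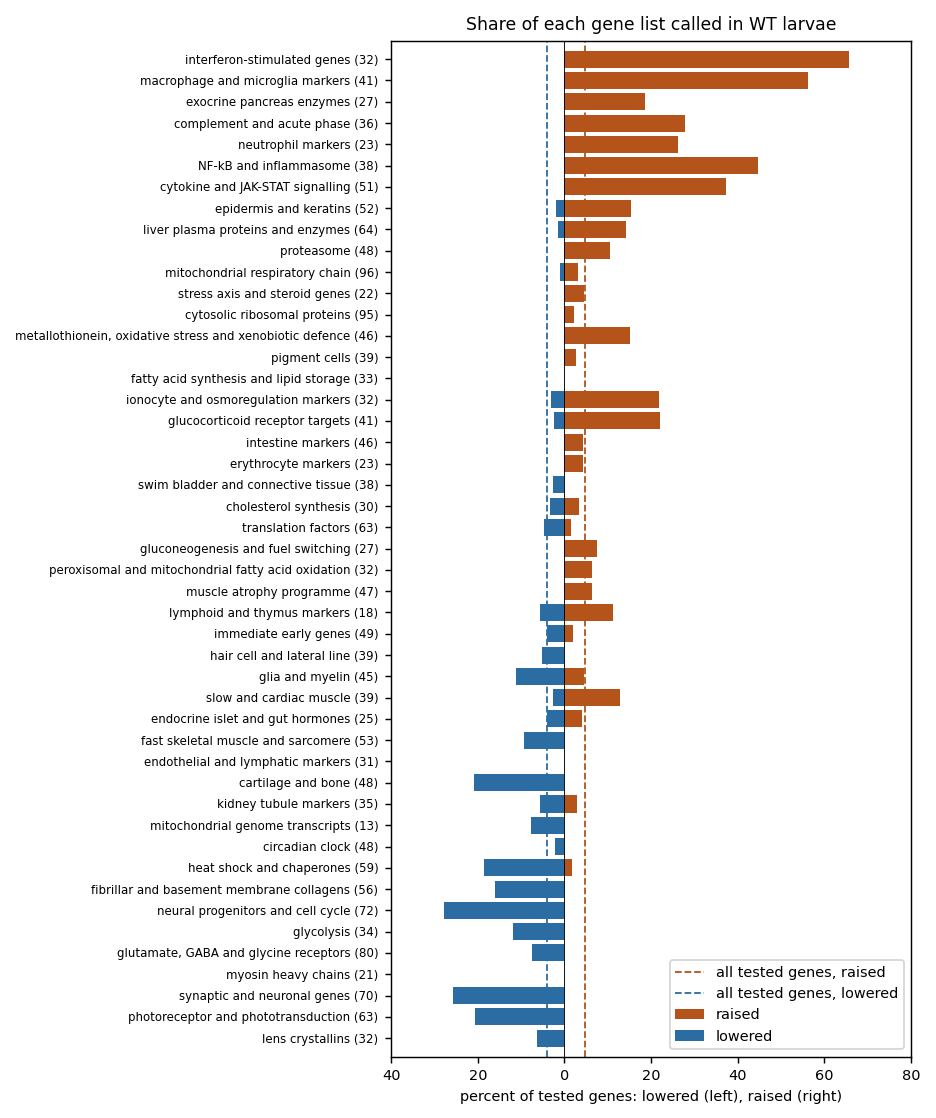
Percent of the tested genes of each list (number in brackets) that were raised (right, orange) or lowered (left, blue) by cortisol in WT larvae, with dashed lines at 4.67% and 3.99% for all tested genes and lists ordered by their median difference. Interferon-stimulated genes (65.6%) and macrophage markers (56.1%) have the longest bars on the right, and cell cycle (27.8%) and synaptic genes (25.7%) on the left.

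Transcripts of the receptors did not pass the test, while known receptor targets were raised in part. nr3c1 (listed as NR3C1) had 824, 827, 816 and 836 in vehicle and 827, 728, 852 and 841 in cortisol, so the groups overlapped (log2 difference -0.03, SE 0.06, adjusted p = 0.79). NR3C2, the mineralocorticoid receptor gene, had 80, 54, 86 and 88 in vehicle and 55, 49, 88 and 85 in cortisol, also with overlap (log2 difference -0.17, SE 0.14, adjusted p = 0.4). klf9 (KLF9) had 274, 250, 243 and 165 in vehicle and 330, 511, 354 and 340 in cortisol. Every cortisol sample of klf9 was above every vehicle sample (log2 difference 0.72, SE 0.18, adjusted p = 0.03). Taken by day, its log2 difference was 0.65 on the first and 0.79 on the other. FKBP5, a chaperone of the receptor that dampens its signalling, had 516, 279, 797 and 306 in vehicle and 500, 1007, 536 and 704 in cortisol and overlapping groups (log2 difference 0.61, SE 0.41, adjusted p = 0.3).

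Of 41 tested genes of the GR target list 9 were raised (22.0%) and 1 was lowered, with a median of 0.09. nfkbiaa, an inhibitor of NF-kB, had 175, 307, 155 and 138 in vehicle and 614, 638, 244 and 220 in cortisol (log2 difference 1.05, SE 0.17, adjusted p = 0.0031). anxa1b, an annexin of the anti-inflammatory family, had 338, 350, 232 and 157 in vehicle and 800, 1080, 320 and 296 in cortisol (log2 difference 1.06, SE 0.20, adjusted p = 0.0081). Both were higher in cortisol within each day. Across days, the day 2 cortisol values lay between the day 1 vehicle values for nfkbiaa and below them for anxa1b. CEBPB, a transcription factor of acute-phase and metabolic genes, rose by 0.66 (SE 0.13, adjusted p = 0.0093), its relative CEBPD by 0.36 (adjusted p = 0.02), and IGFBP1, a binding protein that limits IGF signalling, by 0.59 (SE 0.13, adjusted p = 0.018). The clock gene PER2 fell by 0.48 (SE 0.14, adjusted p = 0.046). Among 22 genes of the stress axis and steroid metabolism 1 was raised, hsd20b2, which encodes an enzyme of cortisol breakdown in zebrafish (log2 difference 0.41, SE 0.11, adjusted p = 0.034). Of the 8 genes called in these lists and named here 3 kept the call with each library left out, and the others reached adjusted p-values of 0.0508 to 0.151 over the libraries whose removal ended the call, which for klf9 were WT vehicle replicates 1, 2 and 4 and WT cortisol replicates 1 and 2. Their calls also rested on the klf9-/- samples, since 1 of the 8 passed with only the 8 WT samples. The raised count of the GR target list was 3 to 5 without any 1 of these libraries and 1 with only the 8 WT samples.

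Macrophage markers were raised in large part, and many of them on both days. Of 41 tested macrophage and microglia markers 23 were raised and none lowered, with a median of 0.88 (0.95 on day 1 and 0.80 on day 2), and 15 were called on each day. ACOD1, which makes the antimicrobial metabolite itaconate in activated macrophages, had 7, 13, 6 and 4 in vehicle and 162, 154, 71 and 48 in cortisol (log2 difference 3.79, SE 0.33, adjusted p = 1.2e-05). Its lowest cortisol value, 48, was above its highest vehicle value, 13. cybb, the catalytic subunit of the phagocyte NADPH oxidase, had 54, 63, 43 and 46 in vehicle and 192, 173, 158 and 140 in cortisol (log2 difference 1.69, SE 0.14, adjusted p = 9.3e-06). NCF1, a cytosolic subunit of the same oxidase, had 47, 65, 38 and 46 in vehicle and 177, 184, 98 and 96 in cortisol (log2 difference 1.46, SE 0.13, adjusted p = 1.8e-05). Neither subunit had overlapping groups. marco, a scavenger receptor for bacteria, had 11, 18, 13 and 12 in vehicle and 64, 48, 40 and 49 in cortisol (log2 difference 1.89, SE 0.18, adjusted p = 1.8e-05).

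Both MFAP4 genes among the 12 largest rises of genes with a proper symbol (not a clone or contig name), members of a family that marks zebrafish macrophages, were called on each day. ENSDARG00000090783 had 44, 67, 36 and 30 in vehicle and 408, 332, 148 and 140 in cortisol (log2 difference 2.44, SE 0.19, adjusted p = 8.5e-06), and ENSDARG00000088745 had 55, 85, 58 and 52 in vehicle and 520, 391, 205 and 186 in cortisol (log2 difference 2.27, SE 0.22, adjusted p = 2.6e-05). In each, the cortisol values of day 1 were the highest and those of day 2 still exceeded all vehicle values. MPEG1 (ENSDARG00000043093), a pore-forming protein of macrophages chosen here after its values were seen, had 188, 330, 189 and 170 in vehicle and 990, 924, 515 and 350 in cortisol (log2 difference 1.59, SE 0.18, adjusted p = 1.4e-04).

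Other defining macrophage genes, also picked after their values were seen, did not pass the test. The receptor gene csf1ra had 364, 542, 352 and 244 in vehicle and 667, 680, 396 and 366 in cortisol (log2 difference 0.49, SE 0.15, adjusted p = 0.0503), and apoeb, abundant in microglia, had 12084, 15577, 9630 and 8350 in vehicle and 14830, 15577, 11406 and 10699 in cortisol (log2 difference 0.22, SE 0.12, adjusted p = 0.19). The summed level of the list ranged from 17039 to 28845 normalized counts in vehicle and from 22645 to 32087 in cortisol, with overlap. Such a sum is set mainly by abundant genes such as apoeb, so its overlap does not describe most of the markers. In vehicle-treated klf9-/- larvae the list was higher on day 1 by a median log2 of 0.63. The number of raised markers was 20 to 24 with each library left out and 19 with only the 8 WT samples, and all 7 genes called above kept the call in each of these fits.

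**Figure D3:**
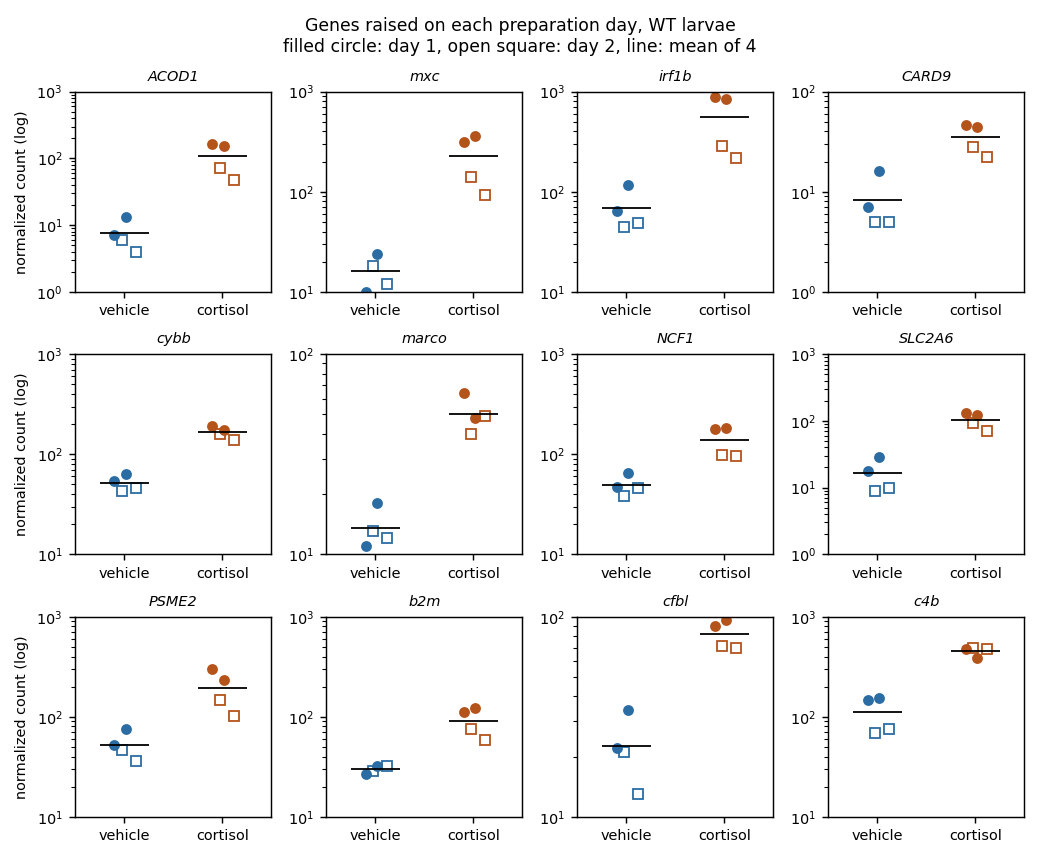
Normalized counts (log axis) of 12 genes raised on each preparation day, in the 4 vehicle (blue) and 4 cortisol (orange) samples of WT larvae, with day 1 as filled circles, day 2 as open squares and the mean of 4 as a line. In all 12 the cortisol samples lie above every vehicle sample, as for ACOD1 with 48 to 162 against 4 to 13.

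Genes of the interferon response had the highest raised share of any list. Of 32 tested interferon-stimulated genes 21 were raised and none lowered, with a median of 0.95 (1.34 on day 1, 0.84 on day 2), and 10 were called on each day. irf1b, an interferon regulatory transcription factor, had 64, 118, 44 and 49 in vehicle and 895, 838, 288 and 218 in cortisol (log2 difference 2.87, SE 0.23, adjusted p = 8.5e-06). The antiviral GTPase mxc had 10, 24, 18 and 12 in vehicle and 314, 358, 140 and 92 in cortisol (log2 difference 3.68, SE 0.32, adjusted p = 1.2e-05). mxf, of the same family, was nearly absent from vehicle samples at 1, 16, 1 and 0 and had 172, 162, 118 and 97 in cortisol (adjusted p = 0.0073), a difference whose size depends on the constant added before the log. Its vehicle mean of 4.5 was under the filter's mean of 5, so it entered the test only through higher samples.

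gbp1, a guanylate-binding protein that attacks intracellular microbes, had 22, 26, 20 and 24 in vehicle and 130, 130, 78 and 69 in cortisol (log2 difference 2.09, SE 0.21, adjusted p = 4.2e-05). b2m, the light chain of MHC class I, had 27, 32, 29 and 32 in vehicle and 111, 121, 76 and 58 in cortisol (log2 difference 1.55, SE 0.16, adjusted p = 4.1e-05), and its effect was larger on day 1 (1.98) than on day 2 (1.12), a difference with an adjusted p of 0.025. The related gene b2ml, outside the named genes counted below, was more abundant and rose less. Its mean was 1403.5 in vehicle and 2174.5 in cortisol (limma, log2 difference 0.64, adjusted p = 0.0037). Some standard targets of type I interferon, chosen after their values were seen, did not pass. isg15, a ubiquitin-like protein, had 9, 14, 11 and 5 in vehicle and 17, 31, 16 and 15 in cortisol (log2 difference 1.04, SE 0.48, adjusted p = 0.14), and RSAD2, an antiviral enzyme, had 4, 5, 7 and 9 in vehicle and 13, 10, 4 and 9 in cortisol (log2 difference 0.47, SE 0.52, adjusted p = 0.55). The raised count of the list was 15 to 22 with each library left out and 15 with only the 8 WT samples, and the 5 genes named by the rule kept the call in all of these. Without cortisol, the list was higher on day 1 in klf9-/- larvae by a median of 0.57.

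Cytokine and NF-kB genes were raised less strongly, with larger medians on day 1, as for the raised genes as a whole (0.89 and 0.45). Of 51 cytokine and JAK-STAT genes 19 were raised (37.3%) with a median of 0.39 (0.52 on day 1, 0.29 on day 2). Of 38 NF-kB and inflammasome genes 17 were raised (44.7%) with a median of 0.41 (0.61 on day 1, 0.25 on day 2). No gene of either list was lowered. STAT4, a signal transducer in lymphoid and myeloid cells, had 74, 76, 54 and 44 in vehicle and 132, 136, 108 and 90 in cortisol (log2 difference 0.93, SE 0.12, adjusted p = 2.6e-04), without overlap. il6r, the interleukin-6 receptor, had 66, 78, 49 and 53 in vehicle and 94, 113, 86 and 94 in cortisol (log2 difference 0.67, SE 0.11, adjusted p = 0.0029). il34, a ligand of the macrophage growth factor receptor, was steady in vehicle at 24, 22, 22 and 22 and had 51, 64, 31 and 36 in cortisol (log2 difference 0.96, SE 0.16, adjusted p = 0.0027). These 3 genes were higher in every cortisol sample than in any vehicle sample. STAT4 (0.84 on day 1, 1.01 on day 2) and il6r (0.52 on day 1, 0.82 on day 2) were called on both days.

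The inflammatory cytokine il1b was low, with 2, 6, 3 and 5 in vehicle and 32, 36, 12 and 9 in cortisol (log2 difference 2.32, SE 0.43, adjusted p = 0.0073). Its vehicle mean lay under the filter's mean of 5, so il1b was tested only because other samples were higher, which favours a raised call. CARD9, an adaptor of fungal sensing, had 7, 16, 5 and 5 in vehicle and 46, 44, 28 and 22 in cortisol (log2 difference 2.18, SE 0.26, adjusted p = 1.8e-04), and was called on both days (2.08 on day 1, 2.29 on day 2). MMP9, a secreted protease of inflamed tissue, had 85, 130, 71 and 85 in vehicle and 325, 458, 191 and 128 in cortisol (log2 difference 1.44, SE 0.22, adjusted p = 0.0017). pycard, the inflammasome adaptor, rose by 0.92 (adjusted p = 0.013), and its day 1 difference of 1.43 exceeded that of 0.41 on day 2 (adjusted p = 0.031). NFKBIE, an inhibitor of NF-kB like nfkbiaa, rose by 0.43 (SE 0.09, adjusted p = 0.012). The raised count of the NF-kB list fell to 3 without WT cortisol replicate 1 and also to 3 with only the 8 WT samples, and that of the cytokine list to 9 without WT cortisol replicate 2. pycard and NFKBIE lost the call without WT cortisol replicate 1 or 2, at adjusted p-values of 0.0506 to 0.0558.

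Among 48 tested proteasome genes 5 were raised (10.4%) and none lowered, and these 5 belong to the immunoproteasome, its activator or a variant core subunit. PSME2, a subunit of the PA28 activator that shapes peptides for MHC class I, had 52, 76, 46 and 36 in vehicle and 300, 232, 146 and 102 in cortisol (log2 difference 1.82, SE 0.15, adjusted p = 9.3e-06), and its partner PSME1 had 108, 140, 99 and 94 in vehicle and 366, 328, 170 and 150 in cortisol (log2 difference 1.11, SE 0.14, adjusted p = 2.9e-04). PSMB8, a catalytic subunit induced by interferon, had 2, 2, 0 and 4 in vehicle and 42, 38, 15 and 15 in cortisol (adjusted p = 0.0099), so that a near-absent transcript was detected at 15 or more in each cortisol sample. Its vehicle values lay under the filter's mean of 5, so it was tested only because other samples were higher, which favours a raised call. PSMB10, another inducible subunit, rose by 0.92 (adjusted p = 0.015), and psma6l, an alpha subunit gene, by 0.84 (adjusted p = 0.014). The whole list had medians of 0.48 on day 1 and -0.07 on day 2, and in 23 genes the effect was smaller on day 2. The raised count was 3 without WT cortisol replicate 1 or 2, 10 without WT cortisol replicate 4, 19 without WT vehicle replicate 3 and 2 with only the 8 WT samples. PSMB10 and psma6l lost the call without WT cortisol replicate 1 or 2 (and PSMB10 without WT vehicle replicate 1), at adjusted p-values of 0.0507 to 0.0608.

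The complement and acute-phase list, largely made in the liver, was raised in part, with a larger median on day 2 than on day 1. Of 36 genes 10 were raised (27.8%) and none lowered, with medians of 0.27 on day 1 and 0.75 on day 2, and in 12 genes the effect was larger on day 2. c4b, a complement component of the classical and lectin pathways, had 147, 153, 68 and 76 in vehicle and 478, 383, 486 and 477 in cortisol (log2 difference 2.13, SE 0.33, adjusted p = 0.0018). cfbl, a relative of complement factor B, had 22, 34, 21 and 13 in vehicle and 90, 96, 71 and 70 in cortisol (log2 difference 1.92, SE 0.19, adjusted p = 4.1e-05). For both genes every cortisol sample was higher than every vehicle sample. The copper carrier CP (ceruloplasmin) had 1367, 1494, 819 and 737 in vehicle and 2014, 2088, 1841 and 1862 in cortisol (log2 difference 0.89, SE 0.16, adjusted p = 0.0061), and its effect was 0.52 on day 1 and 1.25 on day 2 (adjusted p of the difference 0.011). In the CP values the 2 days differed more in vehicle than in cortisol. c8g, of the terminal complement complex, rose by 0.67 (SE 0.13, adjusted p = 0.0078). lcn15, a lipocalin, rose by 0.56 (adjusted p = 0.014), a call that ended without WT cortisol replicate 2 (adjusted p = 0.0527). The raised count was 6 without WT vehicle replicate 4, WT cortisol replicate 1 or WT cortisol replicate 2 and 7 with only the 8 WT samples.

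Of 23 neutrophil markers 6 were raised (26.1%) with a median of 0.49, 3 of which (NCF1, MMP9 and il1b) are counted above as well. Only 22 of the 30 symbols written for this list matched a gene, so its share can miss markers carried under other names. EPX and LECT2, outside its counted members and the named genes, were picked after their values were seen. Both were raised on both days without overlap (limma, log2 difference 1.32, adjusted p = 5.7e-04, and 1.56, adjusted p = 8.1e-05). lyz, the lysozyme of myeloid granules, had 362, 358, 242 and 264 in vehicle and 920, 792, 308 and 547 in cortisol (log2 difference 0.97, SE 0.21, adjusted p = 0.017), and it lost the call without WT vehicle replicate 1 or WT cortisol replicate 1 (adjusted p of 0.0599 to 0.0665). srgn, a granule proteoglycan, had 220, 280, 161 and 174 in vehicle and 516, 450, 266 and 267 in cortisol (log2 difference 0.81, SE 0.13, adjusted p = 0.0019) and was called on both days. The summed level of neutrophil markers was 4815 to 8221 in vehicle and 5971 to 11958 in cortisol, with overlap. Of 18 lymphoid markers 2 were raised and 1 was lowered, with a median of 0.01. Among them the thymus-homing receptor CCR9 (ENSDARG00000055186) had 14, 14, 7 and 6 in vehicle and 21, 23, 15 and 15 in cortisol (log2 difference 0.92, SE 0.20, adjusted p = 0.017).

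The 12 largest rises of genes with a proper symbol included 5 outside the immune lists that were called on both days. SLC2A6, a glucose transporter family member found in macrophages of mammals, had 18, 29, 9 and 10 in vehicle and 132, 122, 92 and 70 in cortisol (log2 difference 2.77, SE 0.22, adjusted p = 8.5e-06). olfm4l2 and olmf4l1, of the olfactomedin family, had 57, 80, 30 and 44 in vehicle and 462, 404, 223 and 176 in cortisol (log2 difference 2.56, SE 0.15, adjusted p = 6.3e-07) and 42, 87, 33 and 38 in vehicle and 459, 374, 220 and 143 in cortisol (log2 difference 2.55, SE 0.22, adjusted p = 1.2e-05). sult5a1, a sulfotransferase, had 28, 34, 31 and 24 in vehicle and 310, 296, 97 and 86 in cortisol (log2 difference 2.52, SE 0.24, adjusted p = 2.5e-05), and its effect was larger on day 1 (3.29) than on day 2 (1.74, adjusted p of the difference 0.0043). urgcp had 111, 222, 164 and 111 in vehicle and 1066, 1072, 610 and 426 in cortisol (log2 difference 2.34, SE 0.25, adjusted p = 7.2e-05). No vehicle value of these 5 genes reached the lowest cortisol value. Of the 115 genes raised on both days 37 (32.2%) were in the 8 lists of immunity and the proteasome, which hold 1.26% of tested genes, 4 were in other lists and 74 in none. The lists were written with earlier results of these data known, and these 8 were picked from 47. Both choices favour a high share, so it is a description and no independent support.

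The effect of cortisol was smaller in klf9-/- larvae, whose samples were prepared on the same 2 days, in 36 of the 115 genes raised on both days (31.3%) and in 0.168% of all tested genes (interaction term, adjusted p under 0.05). The 115 had been chosen for their effect in WT, which favours a larger effect there. The 36 became 22 without WT cortisol replicate 3, 23 without WT cortisol replicate 1, WT cortisol replicate 2 or klf9-/- cortisol replicate 2, and at most 47, without WT cortisol replicate 4. As examples chosen after their values were seen, ACOD1 had a log2 difference of 0.21, cybb of 0.26, marco of 0.15 and irf1b of 0.40, and the difference between genotypes had adjusted p-values of 0.0032, 0.0047, 0.0053 and 0.0037, respectively.

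Liver genes were raised in part, also with a larger median on day 2. Of 64 liver plasma proteins and enzymes 9 were raised (14.1%) and 1 lowered, with medians of 0.01 on day 1 and 0.51 on day 2, and the effect was larger on day 2 in 24. TTR, the thyroid hormone carrier, had 489, 639, 360 and 292 in vehicle and 912, 786, 496 and 443 in cortisol (log2 difference 0.57, SE 0.10, adjusted p = 0.0051). AGXT (ENSDARG00000052099), which detoxifies glyoxylate, had 556, 648, 400 and 380 in vehicle and 744, 868, 526 and 547 in cortisol (log2 difference 0.44, SE 0.08, adjusted p = 0.006), and HGD, of tyrosine breakdown, rose by 0.55 (adjusted p = 0.015). In all 3 genes, cortisol was higher within each day, and the day 2 cortisol values lay below the higher of the day 1 vehicle values. In vehicle-treated klf9-/- larvae the liver list was higher on day 1 by a median log2 of 0.72. The raised count was 3 without WT vehicle replicate 1 or WT cortisol replicate 1 and 3 with only the 8 WT samples.

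Digestive enzymes of the pancreas differed between the days. The 27 exocrine pancreas genes had medians of -0.16 on day 1 and 1.17 on day 2, with 5 raised (18.5%), none lowered and 7 larger on day 2. CPA1 (ENSDARG00000030915), a carboxypeptidase, had 898, 420, 293 and 286 in vehicle and 960, 901, 780 and 864 in cortisol (log2 difference 1.05, SE 0.24, adjusted p = 0.02). The trypsin-like protease prss59.2 had 9996, 5732, 4302 and 4129 in vehicle and 9634, 9996, 9634 and 9122 in cortisol (log2 difference 0.76, SE 0.19, adjusted p = 0.032), and prss59.1 had 5092, 3626, 2488 and 2042 in vehicle and 5092, 5092, 4656 and 4960 in cortisol (log2 difference 0.67, SE 0.19, adjusted p = 0.046). In all 3, vehicle replicate 1 lay within the range of the cortisol samples, while both day 2 vehicle samples were low. The remaining raised members were rnasel3, a secreted ribonuclease (log2 difference 1.08, SE 0.16, adjusted p = 0.0014), and spink4, a protease inhibitor (log2 difference 0.73, SE 0.12, adjusted p = 0.0036). The raised count was 2 without WT vehicle replicate 4 or WT cortisol replicate 1 and 1 with only the 8 WT samples, and prss59.1 lost the call without any 1 of 12 libraries. The summed level of the list was 37469 to 113694 in vehicle and 61402 to 91288 in cortisol.

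Intestinal markers had opposite medians on the days, -0.37 on day 1 and 0.37 on day 2, with 22 of 46 genes larger on day 2. Only 2 of the 46 were raised, RBP2 (ENSDARG00000070038), a retinol carrier of the gut lining (log2 difference 0.73, SE 0.17, adjusted p = 0.022), and the mucin muc5.1 (log2 difference 0.59, SE 0.17, adjusted p = 0.047), and neither passed with only the 8 WT samples or without WT vehicle replicate 1, WT cortisol replicate 1 or WT cortisol replicate 2. Of 25 islet and gut hormone genes 1 was raised and 1 lowered, the raised gene being the somatostatin gene sst1.2, with 68, 82, 46 and 26 in vehicle and 173, 130, 68 and 55 in cortisol (log2 difference 0.91, SE 0.17, adjusted p = 0.0061).

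**Figure D4:**
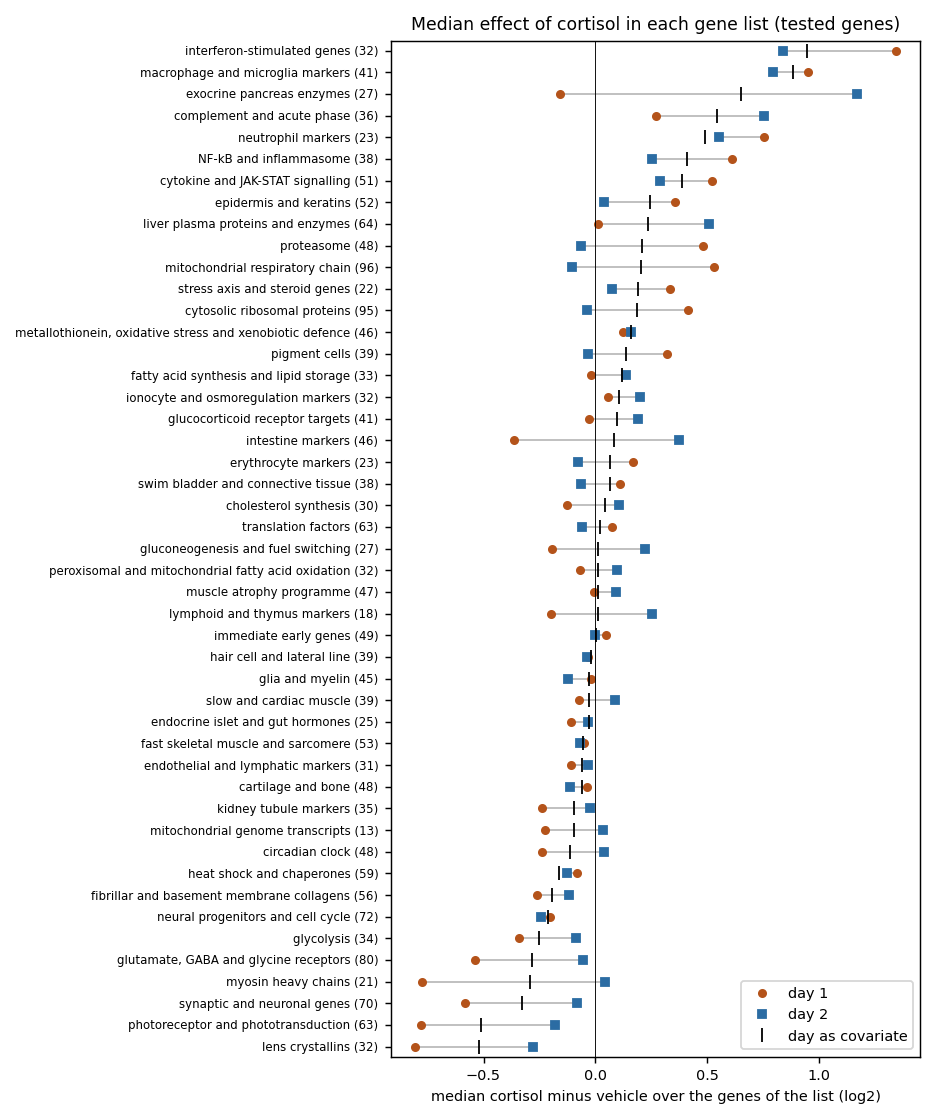
Median log2 difference between cortisol and vehicle over the tested genes of each list (number in brackets) on preparation day 1 (orange circles), on day 2 (blue squares) and with day as covariate (black ticks). Macrophage markers (0.95 and 0.80) and interferon-stimulated genes (1.34 and 0.84) are positive on both days, cell cycle genes (-0.20 and -0.25) are negative on both, and exocrine pancreas (-0.16 and 1.17) and intestine (-0.37 and 0.37) change sign.

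The body surface showed scattered rises. Of 32 ionocyte and osmoregulation genes 7 were raised (21.9%) and 1 lowered, and all 3 genes listed as RHCG, ammonia transporters of the gill and skin ionocytes, were among the raised. ENSDARG00000003203 had 544, 786, 508 and 276 in vehicle and 1473, 1494, 674 and 744 in cortisol (log2 difference 1.05, SE 0.20, adjusted p = 0.0078), ENSDARG00000007080 rose by 0.61 (adjusted p = 0.019) and ENSDARG00000100265 by 0.54 (adjusted p = 0.024). In the epidermis list 8 of 52 genes were raised (15.4%) and 1 lowered, with medians of 0.35 on day 1 and 0.04 on day 2. grhl3, a transcription factor of the epidermal barrier, had 140, 206, 145 and 108 in vehicle and 364, 332, 145 and 139 in cortisol (log2 difference 0.61, SE 0.16, adjusted p = 0.034), and cdh1, E-cadherin, had 1473, 2249, 1315 and 1175 in vehicle and 3120, 2906, 1633 and 1494 in cortisol (log2 difference 0.53, SE 0.14, adjusted p = 0.039). agr1 rose by 0.83 (adjusted p = 0.048), and its day 1 difference of 1.6 exceeded that of 0.07 on day 2 (adjusted p = 0.0086), and the tight-junction gene cldne rose by 0.52 (adjusted p = 0.045). Without WT vehicle replicate 1 or WT cortisol replicate 2 only 1 gene of each list was raised, and of the 7 genes named here 1 kept the call with each library left out. The epidermis list was higher on day 1 in klf9-/- vehicle larvae by a median of 0.58.

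Part of the genes of the eye were lowered, with the more negative median on day 1. Of 63 photoreceptor genes 13 were lowered (20.6%) and none raised, with medians of -0.78 on day 1 and -0.18 on day 2. On both days 48 were lower, against 34% of all tested genes. opn1mw1, a green cone opsin, had 4656, 4129, 5518 and 6366 in vehicle and 3068, 2694, 4540 and 4382 in cortisol (log2 difference -0.51, SE 0.08, adjusted p = 0.0021). It was lower in cortisol within each day, with log2 differences of -0.61 on day 1 and -0.41 on day 2, and the groups overlapped across days. opn1lw2, a red cone opsin, had 7467, 4380, 7868 and 8730 in vehicle and 2066, 2310, 5729 and 5729 in cortisol (log2 difference -0.96, SE 0.20, adjusted p = 0.015). NR2E3, a nuclear receptor that sets rod identity, had 100, 68, 113 and 143 in vehicle and 34, 23, 96 and 98 in cortisol (log2 difference -0.97, SE 0.22, adjusted p = 0.021), and ARR3 (ENSDARG00000098475), cone arrestin, had 3438, 2310, 3230 and 4128 in vehicle and 1080, 830, 3120 and 3230 in cortisol (log2 difference -0.89, SE 0.25, adjusted p = 0.045). For both of these the effect was smaller in size on day 2 (adjusted p of the difference 0.03 and 0.0071).

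gc2, a photoreceptor guanylate cyclase gene, and opn6a, a further opsin, were also among the 12 largest falls of genes with a proper symbol, at -0.84 (adjusted p = 0.039) and -0.83 (adjusted p = 0.018). The lens crystallins had 2 of 32 genes lowered (6.25%) and medians of -0.81 on day 1 and -0.28 on day 2. Vehicle-treated klf9-/- larvae had the photoreceptor list lower on day 1 by a median of -0.51 and the crystallins by -0.62. The lowered count of the photoreceptor list ranged from 1 without WT cortisol replicate 2 to 37 over the libraries left out, and was 1 with only the 8 WT samples.

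Part of the neuronal genes were lowered too, with the more negative median on day 1. Of 70 synaptic and neuronal genes 18 were lowered (25.7%) and none raised, and the medians were -0.58 on day 1 and -0.08 on day 2. On both days 49 were lower, against 34% of all tested genes. In 37 of the 70 the effect was larger, that is less negative, on day 2. tubb5, a neuronal tubulin, had 3120, 2310, 4128 and 4202 in vehicle and 1248, 1112, 3175 and 3366 in cortisol (log2 difference -0.77, SE 0.16, adjusted p = 0.014), and STMN2 (ENSDARG00000070537), a regulator of axonal microtubules, had 1228, 1032, 1485 and 1494 in vehicle and 800, 737, 1116 and 1220 in cortisol (log2 difference -0.45, SE 0.09, adjusted p = 0.014). sv2ba, a synaptic vesicle glycoprotein, fell by 0.68 (SE 0.18, adjusted p = 0.034).

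Of 80 receptors for glutamate, GABA and glycine 6 were lowered (7.50%) and none raised. On both days 57 of the 80 were lower, against 34% of all tested genes. The lowered count of this list was 1 or 2 without any 1 of WT vehicle replicates 1 and 4 and WT cortisol replicates 1 and 2, 14 to 21 without WT vehicle replicate 3 or WT cortisol replicates 3 or 4, and 0 with only the 8 WT samples. GRIN2C (ENSDARG00000077560), an NMDA receptor subunit, had 53, 52, 99 and 84 in vehicle and 26, 29, 70 and 74 in cortisol (log2 difference -0.64, SE 0.12, adjusted p = 0.0085), and GABRA6 (ENSDARG00000075058), a GABA-A subunit of cerebellar granule cells, had 205, 198, 220 and 282 in vehicle and 138, 121, 202 and 198 in cortisol (log2 difference -0.48, SE 0.10, adjusted p = 0.013). The other large falls were pxdc1a (-1.17, adjusted p = 0.031), PAPSS1, which makes the sulfate donor (-0.94, adjusted p = 0.023), the phosphatase inhibitor PPP1R14C (-0.85, adjusted p = 0.023) and FOXN4, a retinal and spinal progenitor factor (-0.84, adjusted p = 0.02). The synaptic list was lower on day 1 in klf9-/- vehicle larvae by a median of -0.51. Of the 15 eye, neuron and other genes named in these paragraphs 2 kept the call with each library left out and 1 with only the 8 WT samples, and the lowered count of the synaptic list was 0 without WT cortisol replicate 1 or 2, 2 to 4 without WT vehicle replicates 1, 2 or 4, and 0 with only the 8 WT samples.

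Part of the genes of dividing cells were lowered, and the medians of the list were close on the days. Of 72 neural progenitor and cell cycle genes 20 were lowered (27.8%) and none raised, and the medians were -0.20 on day 1 and -0.25 on day 2. On both days 46 were lower, against 34% of all tested genes. The median day difference of this list was -0.001 in vehicle-treated klf9-/- larvae. TPX2, which builds the mitotic spindle, had 292, 270, 322 and 332 in vehicle and 153, 160, 254 and 266 in cortisol (log2 difference -0.59, SE 0.12, adjusted p = 0.012). CDC20, an activator of the anaphase-promoting complex, had 94, 87, 110 and 110 in vehicle and 42, 46, 86 and 84 in cortisol (log2 difference -0.71, SE 0.16, adjusted p = 0.019), and CDC45, of the replicative helicase, had 78, 80, 98 and 88 in vehicle and 62, 55, 69 and 72 in cortisol (log2 difference -0.42, SE 0.09, adjusted p = 0.02). POLE, the leading-strand DNA polymerase, had 230, 226, 238 and 226 in vehicle and 176, 180, 189 and 197 in cortisol (log2 difference -0.31, SE 0.07, adjusted p = 0.015), and the neural progenitor factor SOX3 had 290, 292, 327 and 338 in vehicle and 242, 226, 268 and 270 in cortisol (log2 difference -0.31, SE 0.07, adjusted p = 0.015). In each of these 5 genes all cortisol values were below all vehicle values. The differences were small, and the calls depended on single day 1 libraries. CDC20, CDC45 and POLE lost theirs without WT cortisol replicate 1 and without replicate 2, SOX3 without replicate 2 and TPX2 without replicate 1, and CDC20 also without WT vehicle replicate 1 (adjusted p of 0.0506 to 0.0787 over all libraries whose removal ended a call). The lowered count of the list was 1 without either library. None of the 5 passed with only the 8 WT samples.

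Some chaperones were lowered, and hsp70l was among the 3 genes called lowered on each day. Of 59 heat shock and chaperone genes 11 were lowered (18.6%) and 1 raised, with a median of -0.16. hsp70l, a stress-inducible HSP70, had 780, 670, 615 and 744 in vehicle and 479, 429, 346 and 342 in cortisol (log2 difference -0.82, SE 0.11, adjusted p = 4.2e-04). Its difference was -0.67 for day 1 and -0.98 for day 2. HSPD1, the mitochondrial HSP60, had 4382, 4802, 4540 and 4960 in vehicle and 1802, 2408, 3368 and 3231 in cortisol (log2 difference -0.83, SE 0.15, adjusted p = 0.0068). hsp90aa1.1, an HSP90 used in myofibre assembly, had 2216, 2067, 1820 and 2140 in vehicle and 1025, 1092, 1315 and 1400 in cortisol (log2 difference -0.78, SE 0.14, adjusted p = 0.0071). The 3 genes had no overlap between the groups. The HSP90 cochaperones AHSA1 (ENSDARG00000100317) and STIP1 fell by 0.40 (adjusted p = 0.014) and 0.32 (adjusted p = 0.024). The raised gene was CHAC1, a glutathione-degrading enzyme of the unfolded protein response, with 2735, 2831, 3366 and 3066 in vehicle and 3860, 5090, 4958 and 4128 in cortisol (log2 difference 0.58, SE 0.14, adjusted p = 0.022). The lowered count was 3 without WT cortisol replicate 1 and 4 with only the 8 WT samples, and AHSA1, STIP1 and CHAC1 lost the call without 1 or more WT libraries (adjusted p of 0.0532 to 0.0957).

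Some extracellular matrix genes of cartilage and bone were lowered. Of 56 collagens 9 were lowered (16.1%) and none raised, and of 48 cartilage and bone genes 10 were lowered (20.8%) and none raised. tnn, tenascin N, named here and below with hnrnpa1a after their values were seen, was lowered on both days and had 4061, 4061, 4128 and 4061 in vehicle and 2643, 2450, 2831 and 3230 in cortisol (log2 difference -0.56, SE 0.08, adjusted p = 7.3e-04). COL1A1, the main fibrillar collagen of bone and skin, had 29419, 47665, 37956 and 37956 in vehicle and 14050, 14050, 29419 and 23442 in cortisol (log2 difference -0.97, SE 0.22, adjusted p = 0.019), and day 2 cortisol replicate 3 equalled vehicle replicate 1. col9a1b, a cartilage collagen, had 8350, 6194, 12084 and 10699 in vehicle and 2526, 3014, 8350 and 6814 in cortisol (log2 difference -0.99, SE 0.15, adjusted p = 0.0019) and an effect of -1.38 on day 1 and -0.59 on day 2 (adjusted p of the difference 0.025). COL11A1, which nucleates cartilage fibrils, had 14044, 15577, 18160 and 15577 in vehicle and 7040, 7467, 14044 and 12084 in cortisol (log2 difference -0.70, SE 0.15, adjusted p = 0.014). COL11A2 fell by 0.42 (adjusted p = 0.028), col8a1a by 0.41 (adjusted p = 0.021) and hapln1a, a link protein of hyaluronan, by 0.44 (adjusted p = 0.034).

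The summed level of the collagen list was 189859 to 223431 in vehicle and 111949 to 174081 in cortisol, so the groups were apart. Such a sum is set mainly by abundant genes such as COL1A1, so it does not describe most of the collagens. Of the 56 collagens 27 were lower on both days, 5 higher on both and 24 opposite, with a median of -0.19. Unlike the neuronal lists, the collagens were higher on day 1 in vehicle-treated klf9-/- larvae, by a median of 0.18. The lowered count was 1 in each of the 2 lists without WT cortisol replicate 1 or 2 and 2 in each with only the 8 WT samples. COL1A1, COL11A1, COL11A2, col8a1a and hapln1a lost the call without WT cortisol replicate 1 or 2 (adjusted p of 0.0508 to 0.122 over all libraries whose removal ended it). hnrnpa1a, an RNA-binding splicing factor and the last of the 3 genes lowered on both days, had 2067, 1948, 2374 and 2644 in vehicle and 1148, 1132, 1842 and 1897 in cortisol (log2 difference -0.62, SE 0.10, adjusted p = 0.0017).

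**Figure D5:**
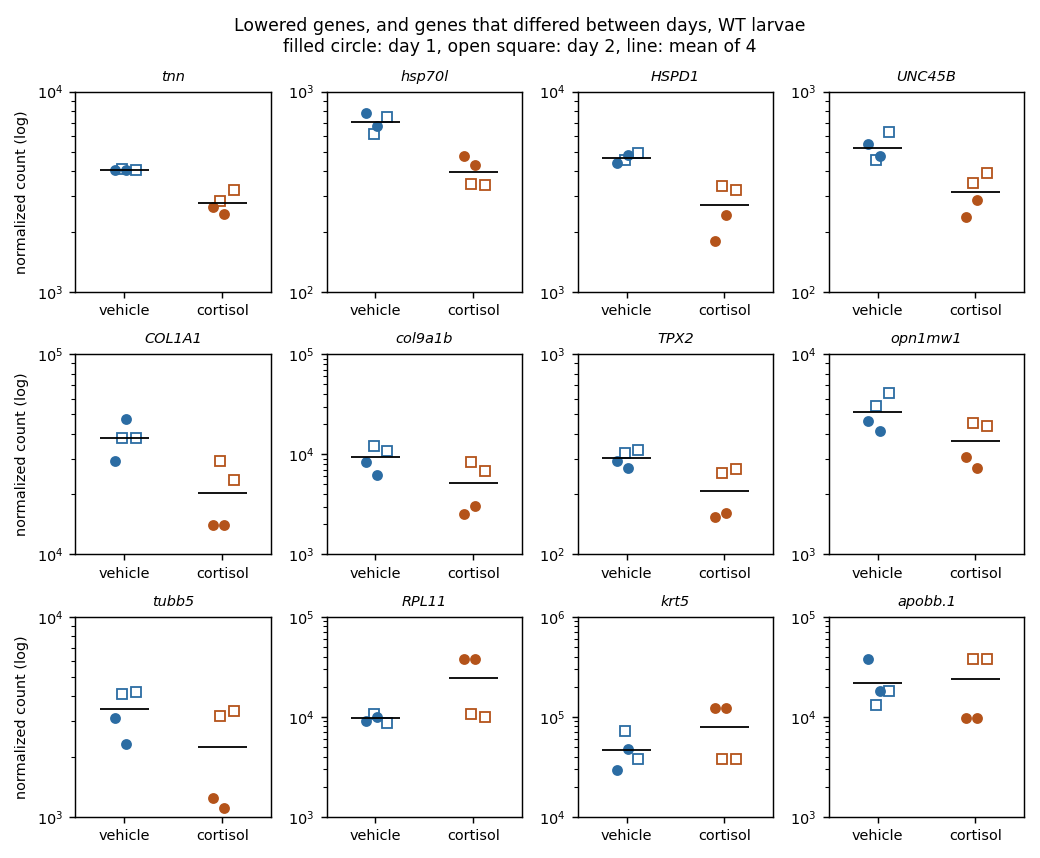
Normalized counts (log axis) of lowered genes and of genes with different effects on the days, in vehicle (blue) and cortisol (orange) samples of WT larvae, with day 1 as filled circles, day 2 as open squares and the mean of 4 as a line. In tnn, hsp70l, HSPD1, UNC45B and TPX2 all cortisol samples are below all vehicle samples, whereas RPL11 and krt5 are highest, and tubb5 and apobb.1 lowest, in the day 1 cortisol samples.

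In skeletal muscle few genes were called. Of 53 fast muscle and sarcomere genes 5 were lowered (9.43%) and none raised, with medians of -0.05 on day 1 and -0.07 on day 2. UNC45B, a myosin chaperone, had 545, 476, 455 and 626 in vehicle and 237, 286, 348 and 392 in cortisol (log2 difference -0.75, SE 0.12, adjusted p = 0.003). actc1a, an alpha-actin, had 8356, 7471, 6196 and 7872 in vehicle and 6007, 6007, 4960 and 5092 in cortisol (log2 difference -0.44, SE 0.11, adjusted p = 0.028), and CASQ1 (ENSDARG00000038716), a calcium store protein, had 3366, 2958, 3175 and 3230 in vehicle and 2612, 2692, 2450 and 2248 in cortisol (log2 difference -0.35, SE 0.10, adjusted p = 0.042). These 3 had no overlap between the groups. The lowered count was 2 without any 1 of WT vehicle replicates 1 and 4 and WT cortisol replicates 1 and 2 and with only the 8 WT samples, and 12 without WT vehicle replicate 3. In the slow and cardiac list 5 of 39 were raised (12.8%) and 1 lowered. This raised count was 2 or 3 without any 1 of WT vehicle replicates 1, 2 and 4 and WT cortisol replicates 1 and 2, and 1 with only the 8 WT samples. tpm1, a tropomyosin, had 3304, 4061, 2014 and 1862 in vehicle and 5304, 4799, 2692 and 2793 in cortisol (log2 difference 0.48, SE 0.09, adjusted p = 0.0079) and was called on both days, and myl4, an atrial myosin light chain, rose by 0.58 (SE 0.11, adjusted p = 0.01).

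The myosin heavy chains had medians of -0.78 on day 1 and 0.04 on day 2, with none of 21 called. Of 47 genes of the muscle atrophy programme, which glucocorticoids are known to induce in mammals, 3 were raised (6.38%) and none lowered, with a median of 0.01, and 0 or 1 was raised without any 1 of WT vehicle replicates 1 and 4 and WT cortisol replicates 1 and 2. Among them eif4ebp3, an inhibitor of translation initiation, rose by 0.65 (adjusted p = 0.016) and SQSTM1, an autophagy receptor, by 0.38 (adjusted p = 0.035). actc1a, CASQ1, eif4ebp3 and SQSTM1 lost the call without WT vehicle replicate 1 or WT cortisol replicate 1 or 2 (adjusted p of 0.0523 to 0.123 over all libraries whose removal ended it).

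Metabolic lists were called at about the background, apart from glycolysis. Of 34 glycolytic genes 4 were lowered (11.8%) and none raised, with a median of -0.25. On both days 19 were lower, against 34% of all tested genes. ALDOC (ENSDARG00000019702), a brain aldolase, had 9118, 7467, 10699 and 14044 in vehicle and 3946, 3752, 11406 and 9993 in cortisol (log2 difference -0.65, SE 0.16, adjusted p = 0.026). LDHA, lactate dehydrogenase, had 3860, 3625, 3752 and 3625 in vehicle and 2692, 3014, 3304 and 3066 in cortisol (log2 difference -0.30, SE 0.09, adjusted p = 0.042), with all cortisol values below all vehicle values. ENO1 (ENSDARG00000013750), an enolase, fell by 0.53 (adjusted p = 0.034) and ALDOA (ENSDARG00000011665), the muscle aldolase, by 0.35 (adjusted p = 0.048). Each of the 4 lost the call without any 1 of WT vehicle replicates 1, 2 and 4 and WT cortisol replicates 1 and 2 (adjusted p of 0.0501 to 0.159), and none passed with only the 8 WT samples.

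Of 27 genes of gluconeogenesis and fuel switching 2 were raised (7.41%), fbp1a, of gluconeogenesis (log2 difference 0.47, SE 0.11, adjusted p = 0.026), and PDK2 (ENSDARG00000059054), a kinase that turns off glucose oxidation, with 3176, 2574, 3120 and 2614 in vehicle and 3368, 3948, 4129 and 4203 in cortisol (log2 difference 0.45, SE 0.12, adjusted p = 0.036). Of 30 cholesterol synthesis genes 1 was raised, insig1, which restrains the pathway, with 378, 352, 284 and 362 in vehicle and 482, 558, 426 and 398 in cortisol (log2 difference 0.43, SE 0.10, adjusted p = 0.021), and 1 lowered, LBR, a sterol reductase of the nuclear membrane (log2 difference -0.28, SE 0.08, adjusted p = 0.042). Of 32 fatty acid oxidation genes 2 were raised, ACADM, which oxidizes medium-chain fatty acids (log2 difference 0.25, SE 0.06, adjusted p = 0.023), and BDH1, of ketone body metabolism (log2 difference 0.31, SE 0.08, adjusted p = 0.038). Each of these 6 lost the call without 2 or more WT libraries (adjusted p of 0.0503 to 0.143), and none passed with only the 8 WT samples.

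Among 46 genes of metal, oxidative and xenobiotic defence 7 were raised (15.2%) and none lowered. The raised count was 2 without any 1 of WT vehicle replicates 1 and 4 and WT cortisol replicates 1 and 2, 12 or 13 without WT cortisol replicate 4 or WT vehicle replicate 3, and 2 with only the 8 WT samples. gpx1b, a glutathione peroxidase, had 213, 304, 152 and 135 in vehicle and 368, 442, 234 and 226 in cortisol (log2 difference 0.67, SE 0.13, adjusted p = 0.0078), HMOX1, the inducible haem oxygenase, had 76, 90, 55 and 48 in vehicle and 135, 211, 60 and 82 in cortisol (log2 difference 0.74, SE 0.17, adjusted p = 0.022), and the cytochrome P450 gene cyp3c1 had 678, 788, 466 and 434 in vehicle and 954, 948, 613 and 638 in cortisol (log2 difference 0.43, SE 0.07, adjusted p = 0.0042). In all 3 cortisol was higher within each day, and cyp3c1 was called on both. In the same klf9-/- vehicle larvae this list was higher on day 1 by a median of 0.51. Of 49 immediate early genes 1 was raised, JUNB (ENSDARG00000074378), with 152, 145, 160 and 177 in vehicle and 299, 356, 234 and 220 in cortisol and no overlap (log2 difference 0.78, SE 0.16, adjusted p = 0.013), and 2 were lowered, among them NR4A2 (ENSDARG00000017007), an orphan nuclear receptor of neurons (log2 difference -0.66, SE 0.19, adjusted p = 0.043). Of 48 clock genes only PER2 was called. HMOX1 lost the call without WT vehicle replicates 1 or 4 or WT cortisol replicates 1 or 2, JUNB without WT cortisol replicate 1 and NR4A2 without 10 libraries (adjusted p of 0.0511 to 0.152).

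Many genes of protein synthesis and respiration were called raised on day 1. Over all tested genes 18% were raised on day 1 and 1.46% on day 2, and 7.85% had a smaller effect on day 2. The absence of raised calls on day 2 in either list is therefore close to the share of all genes. The 95 cytosolic ribosomal protein genes had medians of 0.41 on day 1 and -0.04 on day 2, with 53 raised on day 1, none on day 2 and 36 smaller on day 2. The 96 genes of the mitochondrial respiratory chain had medians of 0.53 and -0.11, with 70 raised on day 1, none on day 2 and 64 smaller on day 2. With day as covariate only 2 and 3 genes, respectively, were raised. RPL11 had 9122, 9996, 10704 and 8734 in vehicle and 37956, 37956, 10704 and 9996 in cortisol (log2 difference 1.04, SE 0.30, adjusted p = 0.043), and RPS12 had 7872, 8356, 9634 and 8356 in vehicle and 20392, 18166, 9122 and 9634 in cortisol (log2 difference 0.66, SE 0.19, adjusted p = 0.049). Both stood out only in the day 1 cortisol samples. EEF1G, of translation elongation, rose by 0.70 (adjusted p = 0.026) and atp5mc3b, of the ATP synthase, by 0.38 (adjusted p = 0.045). Both lists were higher on day 1 also in vehicle-treated klf9-/- larvae, by medians of 0.30 and 0.38. No gene of either list was raised without WT vehicle replicate 1, and none of the 4 genes named here passed with only the 8 WT samples.

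The genes whose effect changed most between the days included muscle, digestive and epidermal genes. For the most abundant, such as myhz1.2, apobb.1, krt5 and TNNI2, the log2 sizes are steps on the fixed ladder of values and not measured fold changes. myhz1.2, a fast myosin heavy chain, had 121446, 71694, 71694 and 121446 in vehicle and 16876, 14830, 121446 and 121446 in cortisol, which gave -2.56 on day 1 and 0.38 on day 2 (adjusted p of the difference 0.0027). apobb.1, an apolipoprotein B of liver and yolk, had 37939, 18160, 13024 and 18160 in vehicle and 9630, 9630, 37939 and 37939 in cortisol, or -1.45 and 1.3 (adjusted p of the difference 0.0023). Both day 2 cortisol samples of apobb.1 were at the level of vehicle replicate 1, and both day 1 cortisol samples were the lowest. ctrl, a chymotrypsin-like enzyme, went from -1.45 to 1.3 (adjusted p of the difference 0.04), ACSBG1, an acyl-CoA synthetase, from -1.38 to 1.3 (adjusted p 2.8e-04), vwa11 from -1.72 to 1.09 (adjusted p 0.006) and BFSP1, a lens filament protein, from -1.86 to 0.78 (adjusted p 0.012).

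In the opposite direction, krt5, a keratin of basal epidermis, had 29419, 47665, 71716 and 37956 in vehicle and 121468, 121468, 37956 and 37956 in cortisol, or 1.70 on day 1 and -0.46 on day 2 (adjusted p of the difference 0.0055). TNNI2 (ENSDARG00000029069), a fast muscle troponin, had 16876, 26483, 20382 and 18160 in vehicle and 71694, 71694, 18160 and 16876 in cortisol, or 1.76 and -0.14 (adjusted p 0.001). cox17, a copper chaperone of the respiratory chain, went from 1.64 to -0.25 (adjusted p 0.0022), DEXI from 1.3 to -0.60 (adjusted p 0.01) and ccdc125 from 0.87 to -0.95 (adjusted p 0.013), while RPL11 is given above. With preparation day as a covariate and 1 effect for both days, none of these genes but RPL11 passed the test. Leaving out WT vehicle replicate 3 reduced the number of genes with different effects from 3474 to 925, and leaving out WT vehicle replicate 2 raised it to 6088.

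The remaining lists were mostly called near the background. Of 39 genes of the pigment cell list 1 was raised, pmchl, a melanin-concentrating hormone gene and not a marker of pigment cells. It had 70, 78, 50 and 46 in vehicle and 211, 207, 66 and 69 in cortisol (log2 difference 1.00, SE 0.23, adjusted p = 0.021). Of 23 erythrocyte markers 1 was raised, the ammonia channel gene RHAG (log2 difference 0.63, SE 0.18, adjusted p = 0.041), and of 35 kidney tubule markers 1 was raised, the aquaporin gene AQP3 (log2 difference 0.58, SE 0.16, adjusted p = 0.041), and 2 were lowered. Among 45 genes of glia and myelin 2 were raised and 5 lowered, with a median of -0.03, and the glutamate transporter gene SLC1A2 (ENSDARG00000102453) had 8730, 7467, 14044 and 14830 in vehicle and 4202, 3752, 12084 and 12084 in cortisol (log2 difference -0.64, SE 0.15, adjusted p = 0.025). Of 39 hair cell genes 2 were lowered, such as PCDH15 (ENSDARG00000008127), of the tip link (log2 difference -0.58, SE 0.16, adjusted p = 0.041), and of 38 genes of swim bladder and connective tissue 1 was lowered, TNMD, a tendon marker (log2 difference -0.33, SE 0.09, adjusted p = 0.045). Of 13 transcripts of the mitochondrial genome 1 was lowered, MT-ATP6, with 37939, 37939, 37939 and 47652 in vehicle and 18160, 29412, 37939 and 29412 in cortisol (log2 difference -0.53, SE 0.14, adjusted p = 0.038), and this list was lower on day 1 in vehicle-treated klf9-/- larvae by a median of -0.67. Of the glia and myelin genes 0 were lowered without any 1 of WT vehicle replicates 1 and 4 and WT cortisol replicates 1 and 2 and with only the 8 WT samples. Translation factors had 1 of 63 raised (EEF1G, above) and 3 lowered. Each of the 7 genes named here lost the call without WT vehicle replicate 1 and without each of 2 or more further libraries (adjusted p of 0.0509 to 0.142), and 1 of them passed with only the 8 WT samples.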

How the data were processed

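RNA of 16 samples of whole zebrafish larvae (4 each of WT and klf9-/- with vehicle or cortisol) was sequenced as single-end reads. According to the submitters' notes the authors used Trimmomatic 0.38, STAR 2.6.1b, RSEM 1.3.0 and genome build GRCz11. They corrected counts for GC content and equalized the samples with full-quantile normalization in EDASeq under R 3.6.1. The deposited values are log2 normalized counts with 0.1 added. Each sample has an identical sorted set of values that sums to 14653434, so that library depth and counting error are unknown, and changes shared by most genes cannot be seen. Values of 2 to the power of the deposited log2, less 0.1, were whole numbers and are printed as normalized counts.

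The fit used limma 3.58.1 in R 4.3.3 with 1 mean per condition (4), the day of preparation as covariate and an intensity trend, on all 16 samples and the 21490 genes that averaged 5 or more normalized counts, with Benjamini-Hochberg adjustment over these genes and a threshold of 0.05. Effects on each day came from a fit with a mean for every condition and day. The study's own design also had the day as a covariate. Count-based tests were not used because the values had been normalized. The script was tested on simulated data. Lists are described by counts and medians beside those of all genes, without tests of lists. Symbols came from a table of gene names, which gave one to 20529 tested genes. Of 1985 symbols written for the lists 1734 matched a gene, and the others were not counted. Tables were handled with Python 3.11.15, pandas 2.3.3 and NumPy 2.4.6, and plots drawn with Matplotlib 3.10.9.

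The members, gene lists and tests were chosen with earlier results of these data known. Genes named were the 12 largest rises and falls (same sign in 4 same-numbered pairs, mean of at least 50, a symbol that is not a clone or contig name), up to 5 called members of a list in each direction, klf9, nr3c1, nr3c2 and fkbp5, and the 6 largest differences between days in each direction among genes with a symbol. From the members of the lists that this rule gave, the text names a part, and some are not reported here. Alternatives were a mean of at least 75, no filter, 10 added before the log, median centring, no trend, array weights, only the 8 WT samples, limits like those of the study (a log2 difference of at least 0.5, an SE under 1 and a mean of at least 75), no preparation day, the replicate number as a block, separate means for each condition and day, each day alone, and each sample left out. Counts of called list members under these settings, and the count of genes that differed between genotypes with each sample left out, were added after seeing the data. The klf9-/- samples entered the filter on the mean, the estimate of spread and the shared day term of the fit. They were also used for the day difference in vehicle and the comparison of genotypes.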

Additional observations from a re-analysis of the deposited data

Results flagged for a closer look

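In 298 groups of 4 WT samples of the 149 named genes, 1 sample stood apart from the other 3 in 11 groups. Chance alone would give about 1 in 20 for values without ties. In ALDOA, MT-ATP6, tnn and il34 the other 3 samples had equal values, so any gap was flagged. WT vehicle replicate 2 was high for MPEG1 (330 normalized counts against 170 to 189), olmf4l1 (87 against 33 to 42) and mxf (16 against 0 to 1), and low for ALDOA (9118 against 9993 in the other 3). WT vehicle replicate 1 was high for ctrl (11412 against 2488 to 3120) and by little for il34 (24 against 22), WT vehicle replicate 3 by little for tnn (4128 against 4061), and WT vehicle replicate 4 was high for MT-ATP6 (47652 against 37939). WT cortisol replicate 2 was high for KLF9 (511 against 330 to 354) and isg15 (31 against 15 to 17), and low for c4b (383 against 477 to 486).

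The effect of cortisol differed between genotypes at an adjusted p under 0.05 (limma, interaction term) in 17 named genes, larger in WT in each. Over all 21490 tested genes it was larger in WT in 36 (0.168%), and most named genes had been chosen for a called effect in WT, which favours this direction. The difference of the log2 effects was 3.59 for ACOD1 (3.79 in WT and 0.21 in klf9-/-), 3.12 for mxc (3.68 and 0.57), 2.69 for SLC2A6 (2.77 and 0.08), 2.47 for irf1b (2.87 and 0.40) and 2.39 for sult5a1 (2.52 and 0.12). It was 2.11 for urgcp, 2.1 for MFAP4 ENSDARG00000090783 and 1.68 for MFAP4 ENSDARG00000088745, 1.99 for olfm4l2, 1.98 for olmf4l1 and 1.97 for CARD9. The macrophage marker marco had 1.74, and cybb and NCF1, of the phagocyte NADPH oxidase, had 1.43 and 1.13. cfbl had 1.74, gbp1 1.73 and PSME2 1.46.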

How the results depend on the processing

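The count of genes raised (1003) and lowered (857) depended on how the day and the spread were modelled. With only the 8 WT samples it was 262 and 21, with the study's limits 372 and 219, without preparation day 89 and 8, with separate means for each condition and day 2582 and 3091, on day 1 alone 3206 and 3362, and on day 2 alone 339 and 25. Without the intensity trend 434 genes were lowered. Leaving out 1 sample gave 287 to 1842 raised and 53 to 1779 lowered. The 115 genes raised on both days became 58 with a mean of at least 75, 216 with array weights, 49 with the study's limits and 31 to 156 with 1 sample left out, and the 3 lowered on both days became 28 with array weights, 1 with the study's limits and 1 to 6 with 1 sample left out. The 3474 genes with different effects on the days became 1442 with only the 8 WT samples and 925 to 6088 with 1 sample left out. The cause of these changes was not tested.

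With the replicate number as a block in place of day, 763 genes were raised and 449 lowered. Same-numbered samples deviated from the means of their conditions with correlations of 0.06 to 0.52, but from the means of condition and day with correlations of 0.002 to 0.005, so the numbers pair the samples no further than the day does.

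Among the 149 named genes the sign changed for those with opposite effects on the days or near 0. On day 2 alone the log2 difference was 1.3 for ACSBG1, apobb.1 and ctrl, 1.09 for vwa11, 0.78 for BFSP1, 0.38 for myhz1.2, 0.035 for NR3C1, -0.14 for TNNI2, -0.25 for cox17, -0.40 for RSAD2, -0.46 for krt5 and -0.60 for DEXI, and on day 1 alone it was 0.87 for ccdc125. Array weights gave 0.68 for ACSBG1, 0.62 for apobb.1, 0.83 for ctrl, 0.40 for vwa11, -0.16 for DEXI and -0.047 for RSAD2. With 1 sample left out, values ranged from -0.29 to 0.28 for ACSBG1, -0.43 to 0.39 for apobb.1, -0.40 to 0.54 for ctrl, -0.36 to 0.24 for ccdc125, -1.04 to 0.036 for BFSP1, -0.65 to 0.066 for vwa11 and -0.052 to 0.014 for NR3C1. Of the 131 named genes that passed the test 54 passed without each sample in turn, 50 with only the 8 WT samples and 24 without preparation day.

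The 4 samples of a condition came from 1 dish, so differences between dishes cannot be told apart from cortisol. Depth was unknown, and genes with values near 0, such as mxf and PSMB8, have differences that depend on the 0.1 added.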
